A study of Mus musculus with 21 samples.

Results

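The genes of the pyruvate dehydrogenase complex and of its regulators were followed through mouse hearts after infarction and through cultured cardiac fibroblasts. The set has 10 genes of the 53801 gene identifiers in the count tables, taken by symbol and by no measured value. They are the subunit genes Pdha1, Pdhb and Dlat, the kinase genes Pdk1, Pdk2 and Pdk4, the phosphatase genes Pdp1 and Pdp2, and the mitochondrial pyruvate carrier genes Mpc1 and Mpc2. All 10 passed the filter on low counts in both experiments.

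The heart libraries were labelled border zone and day 7. There were 3 wild-type sham hearts, 4 wild-type hearts with myocardial infarction (MI), 4 wild-type hearts labelled MI+FAPI (called FAPI below), and 4 hearts of the genotype FapKO with MI and no FAPI. FAPI is read as an inhibitor of fibroblast activation protein from the series title, and the sources used here give neither the compound and its dose nor the kind of knockout allele or the animals' age, sex and strain. In the other experiment mouse ventricular fibroblasts were kept for 7 days in a 5% GelMA gel, a gelatin-based hydrogel, either alone (3D-culture, 3 libraries, extracted without a sort) or with heart and lung endothelial cells (co-culture, 3 libraries, sorted as CD45-, CD31- and Pdgfra-positive cells). The sort and the endothelial partner changed together, so their parts cannot be told apart.

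The pyruvate dehydrogenase complex of mitochondria turns pyruvate from glycolysis or lactate into acetyl-CoA, the entry of carbohydrate carbon into the citric acid cycle. Pyruvate dehydrogenase kinases phosphorylate the E1 alpha subunit and switch the complex off, and the phosphatases switch it on again. The adult heart burns mainly fatty acids and uses this switch to set how much glucose and lactate is oxidised, with Pdk4 known as the kinase gene that responds to fasting and fatty acids. Transcript levels say nothing of phosphorylation or enzyme activity, which were not measured.

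Counts per library ranged from 18474138 to 37287355 in hearts, from 12871240 to 15650221 in 3D-culture and from 4735337 to 6346015 in co-culture. Levels are CPM, counts scaled to a common library size with TMM, a correction for library composition. A log2 change below is a log2 fold change of these levels. The labels do not say that the heart libraries came from separate animals, so p-values reflect only how far these libraries spread, which may be technical. Fap, the targeted gene, stood at 2.19, 2.32, 2.36 and 1.79 CPM (51, 68, 64 and 46 counts) in the FapKO hearts and at 11.1, 13.2, 9.40 and 11 CPM in the MI hearts. FapKO libraries were all below MI libraries, with a log2 change of -2.36 (SE 0.16, adjusted p = 6.9e-08, by edgeR's quasi-likelihood F test, Benjamini-Hochberg adjusted), and were not at 0. Against sham hearts, at 2.71 to 3.86 CPM, the FapKO level was 65.2% of the mean without overlap, a log2 change of -0.61 (SE 0.19, adjusted p = 0.020). That call was lost with total-count scaling (-0.080, adjusted p = 0.79), with limma-voom (-0.60, adjusted p = 0.062) and without FapKO replicate 4 (-0.53, adjusted p = 0.055), sham replicate 2 (-0.59, adjusted p = 0.059) or sham replicate 3 (-0.49, adjusted p = 0.094). All 18 cardiomyocyte markers were detected in every heart group, but their mean log2 CPM was 11.11 in sham, 8.37 in MI, 10.09 in FAPI and 10.47 in FapKO hearts. The share of mitochondrially encoded counts ran the same way, with 15.2 to 19.6% for sham, 4.18 to 8.03% for MI, 10.9 to 13.2% for FAPI and 13 to 14.1% for FapKO hearts. In these bulk samples fewer cardiomyocytes and less RNA of a gene per cardiomyocyte cannot be told apart.

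Per kilobase of exon, the sham hearts held most Pdhb (425 CPM per kb) and Mpc2 (398 CPM per kb), followed by Pdk2 at 135, Dlat at 57.8, Pdha1 at 45.0, Mpc1 at 30.6 and Pdp2 at 20.2 CPM per kb. Pdp1, Pdk4 and Pdk1 were lowest in sham, at 5.89, 4.19 and 3.91 CPM per kb. The order of Pdhb and Mpc2 is not separated beyond their SDs (69.2 and 49.9 CPM per kb), and read coverage along transcripts is not given, which limits any comparison between genes. Pdk2 thus made up 94.3 ± 0.433% (SD, n = 3) of the kinase transcripts of Pdk1, Pdk2 and Pdk4 in sham hearts, and Pdp2 made up 77.4 ± 0.736% (SD, n = 3) of the phosphatase transcripts.

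**Figure D1:**
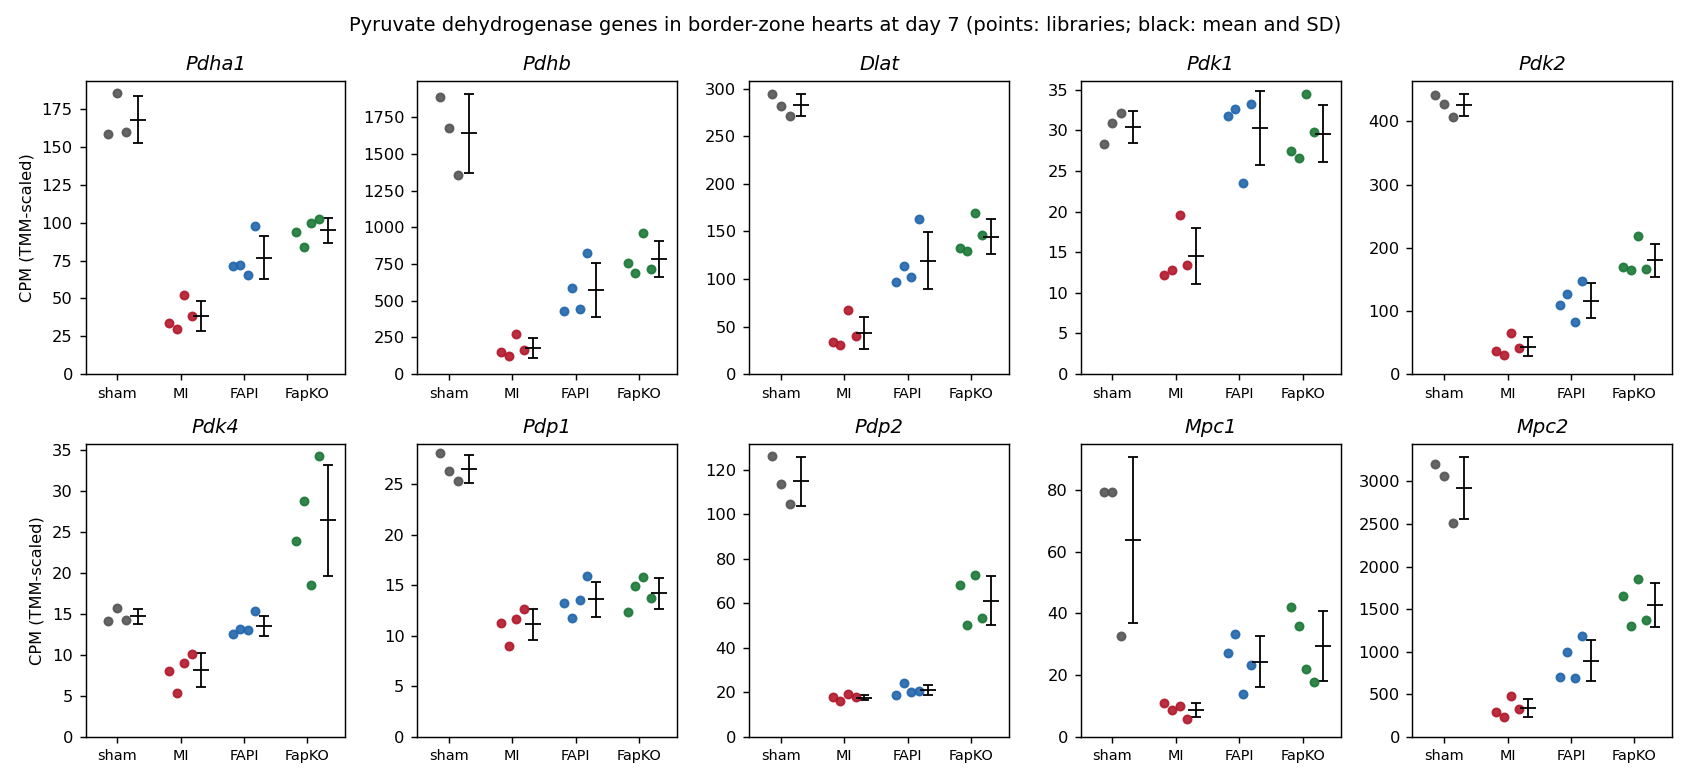
CPM of each of the 10 genes in every heart library (points, coloured by group, replicates 1 to 3 or 4 from left to right), with group mean and SD in black and each vertical axis starting at 0. The MI points lie below the sham points in all 10 panels, Pdp2 stays near 20 CPM in FAPI hearts, and Pdk4 is the one gene whose 4 FapKO points all lie above all sham points.

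The infarct border zone held less of every gene in the set. All 10 genes were lower in MI than in sham hearts at an adjusted p below 0.05 (by edgeR's quasi-likelihood F test, Benjamini-Hochberg adjusted), beside 32% of all genes tested that were lower, and for none of the 10 did the groups overlap, beside 31.1% of all genes that were lower without overlap. Their median log2 fold change was -2.71, against 0.14 over all genes. The size of the drop differed among the genes, also within a role, being greatest for Pdk2, Pdhb and Mpc2 and least for Pdk4 and Pdk1.

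Among the subunits, Pdhb, which encodes the E1 beta chain, was at 1885, 1680 and 1356 CPM in sham and at 149, 120, 277 and 163 CPM in MI hearts. Every MI heart was below every sham heart, and MI replicate 3 was the highest of its group, as it was for the cardiomyocyte markers (9.30 against a group mean of 8.37). The log2 fold change was -3.21 (SE 0.28, adjusted p = 4.1e-08). Dlat, the E2 acetyltransferase, went from 295, 282 and 271 CPM to 34.0, 31.1, 67.0 and 40.5 CPM, a log2 change of -2.71 (SE 0.23, adjusted p = 3.6e-08). Pdha1, the E1 alpha chain that carries the phosphorylation sites, went from 159, 186 and 160 CPM to 33.6, 29.8, 52.5 and 38.2 CPM, a log2 change of -2.13 (SE 0.17, adjusted p = 2.3e-08). All 3 subunit genes thus dropped by more than the spread between libraries, Pdha1 to 22.9% and Pdhb to 10.8% of the sham mean. The within-library ratio of Pdhb to Pdha1 per exon length was 9.37 in sham and 4.34 in MI hearts. Pdha1 shares 16.2% of its exon bases with the gene Map3k15, so counts in that stretch are uncertain.

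Among the kinases, Pdk2, the most abundant of them in the heart, was at 443, 427 and 408 CPM in sham and at 36.7, 30.8, 65.1 and 41.7 CPM in MI hearts. This was the lowest relative level of any member in MI, 10.2% of the sham mean, with a log2 change of -3.29 (SE 0.23, adjusted p = 5.6e-09). Pdk1, the kinase gene known for its induction in hypoxia, was at 28.3, 30.9 and 32.1 CPM in sham and at 12.2, 12.8, 19.6 and 13.4 CPM in MI hearts, a log2 change of -1.07 (SE 0.16, adjusted p = 1.8e-05). Pdk4 was at 14.1, 15.7 and 14.3 CPM in sham and at 7.98, 5.29, 9.02 and 10.1 CPM in MI hearts, a log2 change of -0.86 (SE 0.20, adjusted p = 0.0012). Neither Pdk1 nor Pdk4 overlapped between the groups, but both drops depended on the scaling: with total-count scaling, which moved the median of all genes from 0.14 to 1.23, Pdk1 was at -0.00056 (adjusted p = 0.997) and Pdk4 turned to 0.21 (adjusted p = 0.34). Over all settings their adjusted p ran from 6.7e-10 to 0.997 for Pdk1 and from 4.2e-05 to 0.77 for Pdk4. That scaling also moved the higher genes from 53.7% to 86.1% of all genes called.

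The 2 phosphatases dropped unequally. Pdp2 was at 126, 113 and 105 CPM in sham and at 17.9, 15.9, 19.1 and 17.7 CPM in MI hearts, with a log2 change of -2.70 (SE 0.14, adjusted p = 4.0e-10). Pdp1 was at 28.0, 26.3 and 25.3 CPM in sham and at 11.2, 9.0, 11.6 and 12.7 CPM in MI hearts, with a log2 change of -1.25 (SE 0.13, adjusted p = 2.3e-07), and with total-count scaling it was no longer called (-0.17, adjusted p = 0.20, within a range of 5.2e-19 to 0.20 over all settings). Pdp2 had the smallest p of the 10 genes in this comparison. Its level in MI hearts varied least of all members, between 15.9 and 19.1 CPM, while the cardiomyocyte marker level of the same hearts ran from 7.92 to 9.30 log2 units.

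Both carrier genes were lower in MI. Mpc2 was at 3201, 3063 and 2509 CPM in sham and at 291, 238, 484 and 327 CPM in MI hearts, a log2 change of -3.13 (SE 0.25, adjusted p = 1.8e-08). Mpc1, its obligate partner in the carrier, was at 79.3, 79.4 and 32.7 CPM in sham and at 10.9, 8.64, 9.86 and 5.74 CPM in MI hearts, a log2 change of -2.85 (SE 0.36, adjusted p = 2.4e-06). Sham replicate 3 held less than the other sham hearts, yet more than any MI heart. In every heart group the log2 ratio of Mpc1 to Mpc2 per exon length was lower in replicates numbered 3 or 4 than in 1 and 2. In replicate order it was -3.52, -3.45 and -4.44 in sham and -2.92, -2.97, -3.80 and -4.01 in MI hearts. In FAPI hearts it was -2.88, -3.09, -3.82 and -3.85, and in FapKO hearts -3.48, -3.37, -4.58 and -4.44. The labels do not say what a replicate number stands for, and the cause of the split was not tested. Mpc1 counts are uncertain: 23.1% of its exon bases lie in the antisense gene 4930506C21Rik (5 to 13 counts per heart), the strand setting of the counting is not given, and the processed copy Mpc1-ps took 7.99 to 16.2 counts for every 100 of Mpc1.

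Of 40 tested pathway genes outside the set, from 6 lists, 27 were lower in MI than in sham hearts and 7 were higher. Of 4 tested genes of other subunits and regulators, 3 were lower, among them Dld (E3, log2 fold change -2.46) and Pdhx (E3-binding protein, -2.54), and Pdk3, a kinase gene outside the set, was higher at 1.61 (adjusted p = 5.3e-07). Of 7 genes of lactate and pyruvate interchange and transport 5 were lower and 1 higher, with Ldhb at -3.52 and the monocarboxylate transporter Slc16a1 at -2.29. Of 7 genes of other fates of pyruvate 5 were lower and 2 higher, with the alanine aminotransferase Gpt at -2.97 and the citrate synthase Cs at -2.72. Of 6 genes of lipoate and thiamine supply 4 were lower, with the lipoate synthase Lias at -1.35, and of 7 genes of the related 2-oxoacid dehydrogenases 6 were lower, with Ppm1k, the phosphatase of the branched-chain complex, at -2.74 and Bckdhb at -2.89. Of 9 PPAR-responsive genes 4 were lower, with Acot1 at -3.38 and Acadm at -3.63, and 3 were higher.

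With Pdk3 included, the kinase makeup of the border zone was no longer nearly all Pdk2. Pdk3 took 1.21 ± 0.306% (SD, n = 3) of kinase transcripts per exon length in sham and 23.7 ± 5.22% (SD, n = 4) in MI hearts, and Pdk2 went from 93.2 ± 0.470% to 58.2 ± 5.97%. In FAPI hearts Pdk3 took 9.76 ± 2.85% and in FapKO hearts 3.79 ± 0.828% (SD, n = 4 each). In the same hearts the macrophage markers summed to between 2199 and 2422 CPM in sham, 7794 and 10910 in MI, 5112 and 8993 in FAPI, and 3107 and 5870 in FapKO. The fibroblast markers summed to between 3560 and 4121 CPM in sham, 15090 and 21820 in MI, 8457 and 13740 in FAPI, and 7961 and 9089 in FapKO. The part of either kind of cell in the shares was not tested.

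FAPI hearts held more of 8 of the 10 genes than MI hearts, and the 2 exceptions were the phosphatases. The background was 17.9% of all genes higher at an adjusted p below 0.05. The same 8 genes did not overlap with MI, beside 15.6% of all genes that were higher without overlap. The median log2 fold change of the set was 1.24, against -0.03 over all genes. All 18 cardiomyocyte markers were higher too, with a median of 1.67, and the part of cardiomyocyte content in the members' values is described below.

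In FAPI hearts the E1 beta gene Pdhb was at 428, 585, 444 and 828 CPM, above all MI hearts, with a log2 change of 1.69 (SE 0.25, adjusted p = 0.00024, by edgeR's quasi-likelihood F test, Benjamini-Hochberg adjusted). Dlat was at 96.8, 114, 102 and 162 CPM, a log2 change of 1.46 (SE 0.21, adjusted p = 0.00021), and Pdha1 at 71.7, 72.2, 65.7 and 97.7 CPM, a log2 change of 1.00 (SE 0.16, adjusted p = 0.00036). FAPI replicate 4 was the highest of its group for all 3 subunits, and no FAPI heart overlapped with an MI heart. Pdk1 rose to 31.8, 32.7, 23.5 and 33.2 CPM, a log2 change of 1.06 (SE 0.15, adjusted p = 0.00017), and Pdk2 to 109, 127, 83 and 147 CPM, a log2 change of 1.42 (SE 0.21, adjusted p = 0.00021). Pdk4 rose to 12.5, 13.2, 13 and 15.3 CPM, a log2 change of 0.74 (SE 0.19, adjusted p = 0.0070), which with total-count scaling was 0.33 and not called (adjusted p = 0.13, within 0.00015 to 0.96 over all settings).

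The phosphatase levels in FAPI hearts overlapped with those in MI hearts. Pdp2 was at 19.0, 24.3, 20.3 and 20.6 CPM, a log2 change of 0.25 (SE 0.12, adjusted p = 0.13), and Pdp1 at 13.3, 11.8, 13.5 and 15.9 CPM, a log2 change of 0.29 (SE 0.12, adjusted p = 0.072). Neither passed the test, and with total-count scaling their signs turned, to -0.16 for Pdp2 and -0.12 for Pdp1. Pdp1 did pass without FAPI replicate 2 (0.35, adjusted p = 0.048) or without MI replicate 4 (0.36, adjusted p = 0.047), within a range of 0.0467 to 0.999 over all settings. The carrier genes rose, Mpc2 to 703, 1001, 690 and 1187 CPM (log2 fold change 1.42, SE 0.22, adjusted p = 0.00034) and Mpc1 to 27.2, 33.3, 13.8 and 23.3 CPM (1.47, SE 0.33, adjusted p = 0.0036), both without overlap.

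Of the 40 pathway genes outside the set 23 were higher in FAPI than in MI hearts, 2 were lower and 15 were not called. Of 4 other subunits and regulators 3 were higher, with Pdhx at 1.56 and Dld at 1.27. Of 7 lactate and pyruvate transport genes 5 were higher, with Ldhb at 1.76 and Slc16a1 at 1.29. Of 7 genes of other fates 4 were higher, with Cs at 1.20, and 1 was lower, the pyruvate carboxylase gene Pcx at -0.65. Of 6 cofactor genes 3 were higher (Lias 0.56), of 7 genes of the related complexes 5 (Dlst 1.01), and of 9 PPAR-responsive genes 3 (Acadm 1.64) with 1 lower.

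FapKO hearts held more of all 10 genes than MI hearts, against a background of 25% of all genes higher, and 9 of the 10 did so without overlap, beside 22.6% of all genes. These comparisons with FAPI and with FapKO hearts share their MI hearts, so the values stand side by side and are not independent. The median log2 fold change was 1.74, against -0.08 over all genes, and the 18 cardiomyocyte markers were all higher with a median of 2.00.

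The subunits in FapKO hearts were at 760, 692, 964 and 715 CPM for Pdhb, a log2 change of 2.14 against MI (SE 0.26, adjusted p = 5.6e-06, by edgeR's quasi-likelihood F test, Benjamini-Hochberg adjusted). Dlat was at 133, 129, 170 and 146 CPM (1.74, SE 0.21, adjusted p = 7.3e-06) and Pdha1 at 94.1, 83.7, 99.8 and 102 CPM (1.30, SE 0.16, adjusted p = 7.7e-06). Each reached between 47.7% and 56.5% of its sham mean and stayed below every sham heart. Pdk2 rose to 169, 165, 219 and 167 CPM, a log2 change of 2.05 (SE 0.21, adjusted p = 1.6e-06), and Pdk1 to 27.4, 26.6, 34.4 and 29.8 CPM, a log2 change of 1.03 (SE 0.15, adjusted p = 3.4e-05). Pdk4 rose to 23.9, 28.8, 18.5 and 34.3 CPM, a log2 change of 1.71 (SE 0.19, adjusted p = 2.6e-06). The lowest FapKO heart held more Pdk4 than the highest heart of any other group.

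Pdp2 was at 68.3, 50.2, 72.7 and 53.3 CPM in FapKO hearts, all more than 2 times the highest FAPI or MI heart, with a log2 change against MI of 1.79 (SE 0.13, adjusted p = 8.0e-08). Pdp1 was at 12.3, 15, 15.8 and 13.7 CPM, overlapped with MI, and had a log2 change of 0.35 (SE 0.12, adjusted p = 0.020). The Pdp1 call was lost without FapKO replicate 2 (0.33, adjusted p = 0.050), FapKO replicate 3 (0.30, adjusted p = 0.069) or MI replicate 2 (0.26, adjusted p = 0.073), and its sign turned with total-count scaling (-0.19), within 0.012 to 0.999 over all settings. Mpc2 rose to 1654, 1307, 1859 and 1371 CPM (2.21, SE 0.23, adjusted p = 1.7e-06) and Mpc1 to 42.1, 35.8, 22.0 and 17.9 CPM (1.74, SE 0.33, adjusted p = 0.00039).

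Of the pathway genes outside the set, 3 of 4 other subunits and regulators were higher in FapKO than in MI hearts (Pdhx 1.94, Dld 1.58), and Pdk3 was lower at -0.99 (adjusted p = 4.1e-05). Of 7 lactate and pyruvate transport genes 5 were higher (Ldhb 2.41) and 2 lower. Of 7 genes of other fates 5 were higher (Cs 1.66), of 6 cofactor genes 4 (Lias 0.79), and of 7 genes of the related complexes 6 (Ppm1k 1.33). Of 9 PPAR-responsive genes 4 were higher, with the uncoupling protein Ucp3 at 4.00 and the acyl-CoA thioesterase Acot1 at 2.18.

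**Figure D2:**
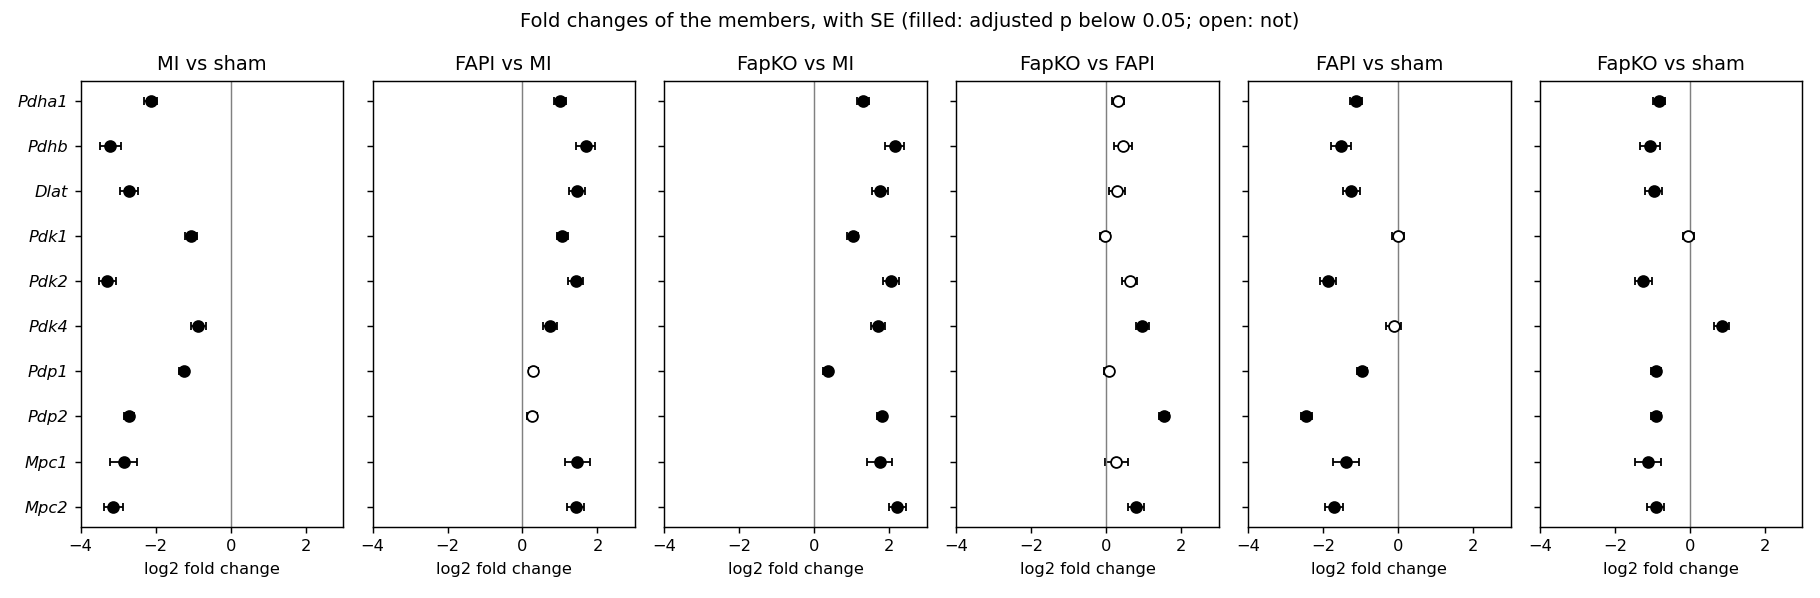
Log2 fold change of each gene (horizontal axis) with its SE in the 6 heart comparisons, filled where the adjusted p was below 0.05. Pdp2 sits at 0.25 for FAPI against MI and at 1.79 for FapKO against MI, and Pdk4 is the one gene right of 0 for FapKO against sham with a filled point.

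The direct comparison of FapKO with FAPI hearts tests where hearts of the FapKO genotype and hearts given FAPI differed. Of the 10 genes 3 were higher in FapKO at an adjusted p below 0.05, beside 6.12% of all genes: Pdp2, Pdk4 and Mpc2. No gene was lower, and the median log2 fold change was 0.38, against -0.02 over all genes. Of the 18 cardiomyocyte markers 2 were higher, with a median of 0.33, and none was lower.

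Pdp2 differed most, with a log2 change of 1.54 (SE 0.13, adjusted p = 1.5e-06, by edgeR's quasi-likelihood F test, Benjamini-Hochberg adjusted) and a 2.90-fold higher level in FapKO. It remained past the threshold in all 18 settings, with adjusted p from 1.8e-27 to 0.00011, and at 1.46 (adjusted p = 1.9e-06) when the marker level of cardiomyocytes entered as a covariate. Pdk4 had a log2 change of 0.97 (SE 0.18, adjusted p = 0.0028), also past the threshold in all 18 settings (5.2e-06 to 0.012). Mpc2 had a log2 change of 0.79 (SE 0.22, adjusted p = 0.027), without overlap. Its call was lost without FAPI replicate 1 (0.69, adjusted p = 0.089), FAPI replicate 3 (0.68, adjusted p = 0.095), FapKO replicate 1 (0.76, adjusted p = 0.068) or FapKO replicate 3 (0.69, adjusted p = 0.093), within 0.0038 to 0.095 over all settings. Pdk2 just missed the threshold at 0.63 (SE 0.20, adjusted p = 0.0503), without overlap, and was called in 8 other settings and also without FAPI replicate 4 (0.76, adjusted p = 0.024). Its adjusted p ran from 0.0088 to 0.16.

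The other 6 genes did not pass the test between FapKO and FAPI. Their log2 fold changes were 0.45 for Pdhb (SE 0.25), 0.31 for Pdha1 (SE 0.16), 0.28 for Dlat (SE 0.21), 0.27 for Mpc1 (SE 0.32), 0.06 for Pdp1 (SE 0.12; -0.07 with total-count scaling) and -0.03 for Pdk1 (SE 0.15). Their adjusted p-values lay between 0.21 and 0.90, which does not show that they were alike. Among the pathway genes outside the set, Ppm1k was higher in FapKO at 0.82, Gpt at 0.91, Acot1 at 1.99 and Ucp3 at 2.60. The lactate exporter gene Slc16a3 was lower at -1.08 and Pdk3 at -0.79. The adipocyte markers, which include PPAR-regulated genes, were at a mean log2 CPM of 2.96 in sham, 5.11 in MI, 2.60 in FAPI and 4.06 in FapKO hearts, and 5 of 8 were higher in FapKO than in FAPI. Their summed level was 1551 to 1666 CPM in sham, 1111 to 1727 in MI, 848 to 1106 in FAPI and 2048 to 2831 in FapKO hearts. The sum was thus highest in FapKO hearts, as Pdk4 was, while the mean log2 level was highest in MI hearts, where Pdk4 was lowest. Pdk4 is also expressed in adipocytes, and the part of such cells in its values was not tested.

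The promoter stretches of the 3 genes called between FapKO and FAPI hearts, and of the main heart kinase Pdk2, are printed to show the letters behind these transcripts. They come from RefSeq (GRCm38.p6), run 5′ to 3′ on the gene's strand, and cover the bases 250 to 51 before the annotated start. Capitals mark the E-box CACGTG, a palindrome read alike on both strands, which the stretches of Pdk4 and Mpc2 do not hold.
Pdp2, chr8:104591222-104591421, plus strand: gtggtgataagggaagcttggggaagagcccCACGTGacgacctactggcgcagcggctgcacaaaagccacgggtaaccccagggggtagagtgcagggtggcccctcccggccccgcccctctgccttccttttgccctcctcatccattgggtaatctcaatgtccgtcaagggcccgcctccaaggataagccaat
Pdk4, chr6:5496329-5496528, minus strand: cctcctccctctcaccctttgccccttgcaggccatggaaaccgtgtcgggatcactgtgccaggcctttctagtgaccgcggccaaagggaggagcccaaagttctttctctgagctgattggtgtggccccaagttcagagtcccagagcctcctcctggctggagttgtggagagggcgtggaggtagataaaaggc
Mpc2, chr1:165461010-165461209, plus strand: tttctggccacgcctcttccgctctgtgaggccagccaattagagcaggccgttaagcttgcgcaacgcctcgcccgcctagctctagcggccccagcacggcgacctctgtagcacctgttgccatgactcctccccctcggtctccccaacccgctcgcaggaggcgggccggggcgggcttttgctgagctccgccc
Pdk2, chr11:95041422-95041621, minus strand: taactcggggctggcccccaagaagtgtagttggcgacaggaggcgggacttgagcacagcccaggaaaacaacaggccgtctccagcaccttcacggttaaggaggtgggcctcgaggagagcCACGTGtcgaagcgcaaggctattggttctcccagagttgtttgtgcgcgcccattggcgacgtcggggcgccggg

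RefSeq promoters of 250 bases before the start matched 9 of the 10 genes, all but Pdp1, and were searched on both strands for 4 motifs. The E-box CACGTG lay in Pdk2 at -126 and in Pdp2 at -219, and 6.02% of 32851 promoters of the same length hold it. The hypoxia response core ACGTG, which is part of that E-box, lay in these and, on the other strand, in Pdhb at -248, and 16.6% of promoters hold it. The nuclear receptor half-site AGGTCA lay in the second promoter of Mpc1 at -244 (14.0% of promoters), and the ERR element TCAAGGTCA was in none of the 9 genes (0.387% of promoters). These are matches of letters, and no binding was measured.

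Against sham, the FAPI hearts remained lower for 8 of the 10 genes, beside 26.5% of all genes lower, and the 2 others were Pdk1 and Pdk4. Pdp2 was furthest from sham, at 18.4% of the sham mean, with a log2 change of -2.45 (SE 0.13, adjusted p = 3.2e-09, by edgeR's quasi-likelihood F test, Benjamini-Hochberg adjusted). Pdk2 was at 27.4% (-1.87, SE 0.22, adjusted p = 3.6e-06), Mpc2 at 30.6% (-1.71, SE 0.24, adjusted p = 1.9e-05) and Pdhb at 34.8% (-1.52, SE 0.26, adjusted p = 0.00015) of sham. Mpc1 (-1.39, adjusted p = 0.0025), Dlat (-1.25, adjusted p = 0.00019), Pdha1 (-1.13, adjusted p = 3.9e-05) and Pdp1 (-0.96, adjusted p = 1.1e-05) were lower as well. For Mpc1 the groups overlapped, with FAPI replicate 2 at 33.3 CPM and sham replicate 3 at 32.7 CPM. Pdk1 stood at 99.5% of the sham mean (-0.01, SE 0.16, adjusted p = 0.97) and Pdk4 at 91.8% (-0.12, SE 0.20, adjusted p = 0.63). Both signs turned with total-count scaling, to 0.65 for Pdk1 (adjusted p = 0.00046) and 0.54 for Pdk4 (adjusted p = 0.025), within ranges of 0.00046 to 0.99 and 0.025 to 0.87 over all settings, and Mpc1 was not called there (-0.71, adjusted p = 0.057, within 2.4e-06 to 0.087).

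FapKO hearts were compared with the same sham hearts, so both comparisons share them. They had 8 genes lower, beside 20.3% of all genes, and 1 higher, beside 19.2% of all genes. The higher gene was Pdk4, at 179% of the sham mean and without overlap, with a log2 change of 0.84 (SE 0.20, adjusted p = 0.0041), called in all 17 settings (4.1e-05 to 0.023). Pdk1 was not called (-0.04, SE 0.16, adjusted p = 0.85; 0.49 with total-count scaling, adjusted p = 0.0060, within 0.0060 to 1.00 over all settings). Pdk2 was the furthest below sham (-1.24, SE 0.22, adjusted p = 0.00044), and Pdp2 (-0.91), Pdp1 (-0.90), Mpc2 (-0.92), Dlat (-0.97), Pdhb (-1.07), Mpc1 (-1.12) and Pdha1 (-0.82) had adjusted p-values between 7.9e-05 and 0.016. Mpc1 overlapped with sham, where replicate 3 held 32.7 CPM, and its call was lost without sham replicate 1 (-0.93, adjusted p = 0.084) or sham replicate 2 (-0.93, adjusted p = 0.078). With total-count scaling Pdha1 (-0.29, adjusted p = 0.065), Mpc1 (-0.55, adjusted p = 0.15) and Mpc2 (-0.38, adjusted p = 0.059) were not called, and over all settings their adjusted p ran from 2.4e-05 to 0.065, from 0.00023 to 0.15 and from 0.00039 to 0.059. Of 9 PPAR-responsive genes 3 were higher than in sham and 2 were lower, with Acot1 at -1.20 (adjusted p = 0.00015), the fatty acid transfer gene Cpt1a at 1.03 (adjusted p = 0.00018) and Angptl4, a secreted inhibitor of lipoprotein lipase, at 2.45 (adjusted p = 0.00098). Pdk3 was higher at 0.62 (adjusted p = 0.012), and its call was lost without sham replicate 2 (0.43, adjusted p = 0.077) and with the cardiomyocyte marker covariate (0.47, adjusted p = 0.070).

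The makeup of the regulators within a library does not depend on the scaling and is given as a description. The log2 ratio of Pdp1 to Pdp2 per exon length was -1.77 ± 0.06 in sham (SD, n = 3), -0.34 ± 0.14 in MI, -0.30 ± 0.29 in FAPI and -1.76 ± 0.31 in FapKO hearts (SD, n = 4 each). The FapKO hearts, from -2.13 to -1.41, surround the sham values, and the FAPI hearts, from -0.71 to -0.04, surround the MI values. The ratio of Pdk4 to Pdk2 was -5.01 ± 0.11 in sham, -2.56 ± 0.36 in MI, -3.23 ± 0.28 in FAPI and -2.95 ± 0.55 in FapKO hearts, with every infarcted heart at -3.71 or above and every sham heart at -4.91 or below. The ratio of Pdk1 to Pdk2 was -5.11 ± 0.15 in sham, -2.85 ± 0.20 in MI, -3.23 ± 0.17 in FAPI and -3.90 ± 0.08 in FapKO hearts, and the FapKO range lay between the sham and FAPI ranges. Pdk1, Pdk2 and Pdk4 summed over both phosphatases were at a log2 ratio of 2.46 ± 0.07 in sham, 1.65 ± 0.32 in MI, 2.71 ± 0.27 in FAPI and 2.30 ± 0.14 in FapKO hearts. FAPI hearts thus had 6.53 transcripts of these 3 kinases per phosphatase transcript, against 3.13 in MI, 4.93 in FapKO and 5.49 in sham hearts. The FAPI log2 ratios, 2.329 to 2.946, overlapped with those of sham (2.379 to 2.515) and FapKO (2.115 to 2.422), but not of MI hearts (1.426 to 2.11). With Pdk3 added to the kinases the numbers of transcripts were 7.24 in FAPI, 4.11 in MI, 5.13 in FapKO and 5.56 in sham hearts. There the FAPI log2 ratios (2.532 to 3.051) overlapped with sham (2.398 to 2.536), but not with FapKO (2.164 to 2.486) or MI (1.886 to 2.366).

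**Figure D3:**
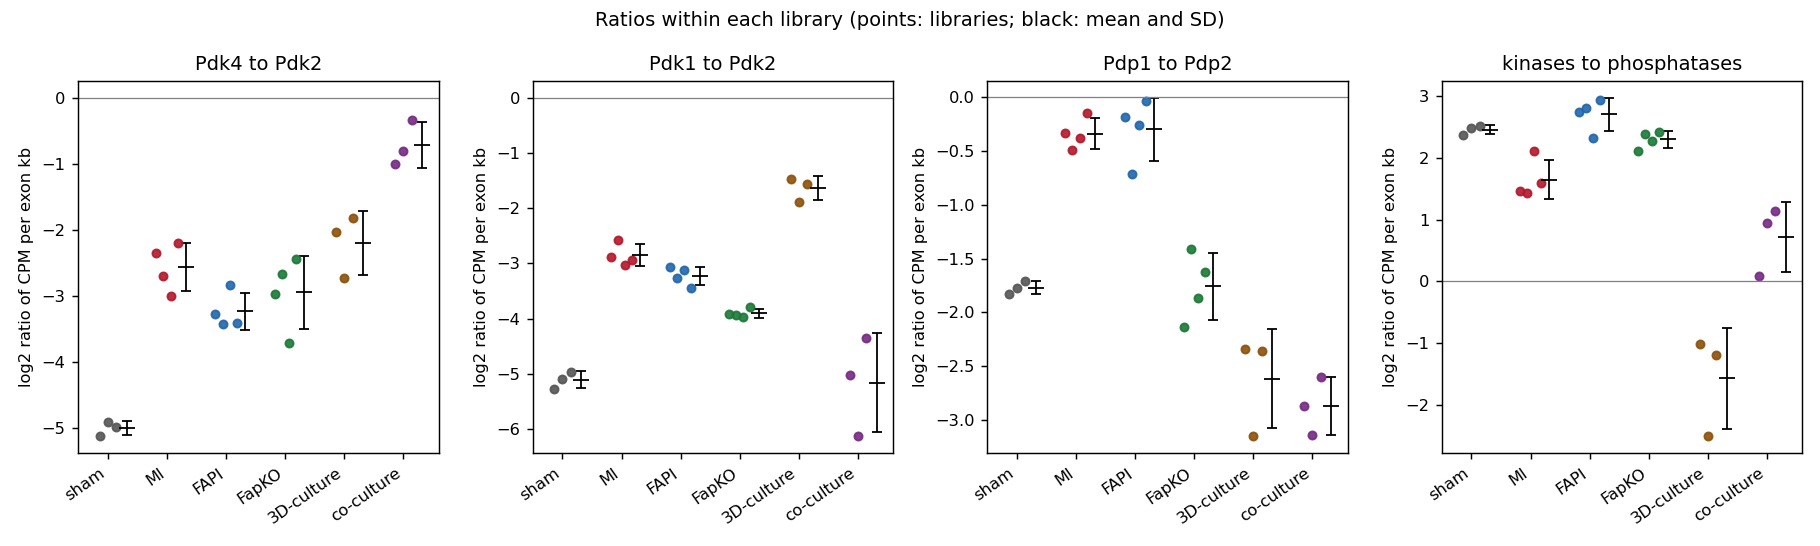
Log2 ratio of CPM per exon kilobase between the genes named above each panel, by library (points) with mean and SD in black, for the 4 heart groups and the 2 fibroblast groups, with Pdk3 not among the kinases summed. For Pdp1 to Pdp2 the sham and FapKO points lie at -1.41 or below and the MI and FAPI points at -0.71 or above.

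The cardiomyocyte marker level moved with the members' levels, and members were therefore also set against it. The group means of a gene's log2 CPM minus the marker level spanned least for Dlat (0.34 log2 units), followed by Mpc1 at 0.45, Pdhb at 0.54, Mpc2 at 0.72, Pdha1 at 0.77 and Pdk2 at 0.88. They spanned most for Pdp2 at 1.47, Pdk1 at 1.65, Pdp1 at 1.75 and Pdk4 at 1.85 log2 units. These spans are of group means only. The SD of the Mpc1 difference within a group was 0.65 in sham, 0.71 in MI, 0.50 in FAPI and 0.60 in FapKO hearts. Each is above the Mpc1 span, so its small span does not show that Mpc1 followed the markers closely. For Dlat the SDs were 0.07, 0.16, 0.16 and 0.12 in the same order. The difference of Dlat from the marker level was -2.96 in sham, -3.0 in MI, -3.22 in FAPI and -3.30 in FapKO hearts, and that of Pdha1 was -3.71, -3.13, -3.84 and -3.90. For Pdk1 the difference was -6.18 in sham, -4.53 in MI, -5.18 in FAPI and -5.59 in FapKO hearts, and for Pdk4 -7.22, -5.37, -6.33 and -5.78. Relative to the markers these kinases were thus higher in every infarcted group than in sham, without overlap, whereas Pdk2 was lower, at -2.37 in sham and -2.98, -3.25 and -2.98 in the others. Pdp2 was at -4.27 in sham, -4.22 in MI, -5.69 in FAPI and -4.55 in FapKO hearts, with all FAPI hearts (-6.18 to -5.39) below all others.

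With the marker level as a covariate in the fit, 2 of the 10 genes stayed lower in MI than in sham, beside 2.81% of all genes, Pdk2 (-1.31, adjusted p = 0.014) and Pdp2 (-2.11, adjusted p = 0.0030). No member was called between FAPI and MI by edgeR in that fit, where their adjusted p-values were 0.916 to 0.999 and 0 had an unadjusted p below 0.05, beside 0% of all genes higher. Between FapKO and MI 1 gene was called, Pdp2 (1.34, adjusted p = 0.034), beside 0.117% of all genes higher. The marker level of the MI hearts, 7.92 to 9.30, did not overlap with that of any other group. The same held for the sham hearts, at 11 to 11.18. In comparisons with MI or with sham hearts the covariate and the group thus changed together, which limits these calls. Between FapKO and FAPI, whose marker levels do overlap (10.36 to 10.64 and 9.73 to 10.55), 4 genes were called, beside 4.71% of all genes higher, Pdp2, Pdk4 (0.90, adjusted p = 0.0062), Mpc2 (0.52, adjusted p = 0.0051) and Pdk2 (0.36, adjusted p = 0.025). Against sham, 7 genes were lower in FAPI hearts, beside 15.7% of all genes, and Pdk1 was called higher (0.45, adjusted p = 0.026), beside 18.9%. In FapKO hearts 7 genes were lower than in sham, beside 13.9% of all genes, and Pdk4 was higher, beside 14.2%.

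**Figure D4:**
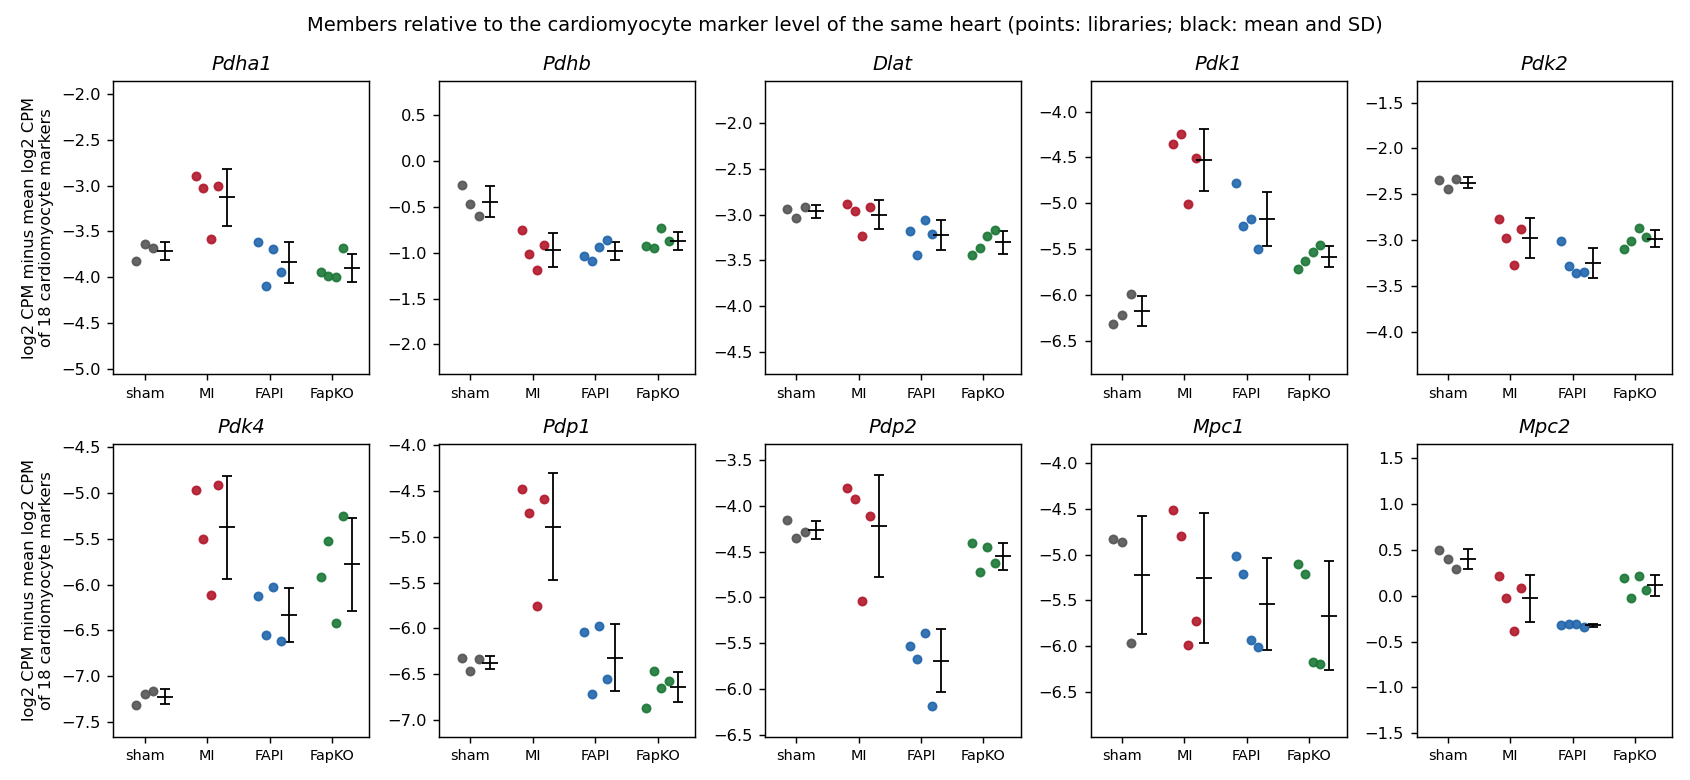
Log2 CPM of each gene minus the mean log2 CPM of 18 cardiomyocyte markers in the same heart (vertical axes of equal length, not starting at 0), by group, with mean and SD in black. For Pdp2 the 4 FAPI points, from -6.18 to -5.39, lie below those of the other groups.

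Members also differed in how closely they ran with one another over the 15 hearts. By the root mean square difference of mean-centred log2 CPM, Pdhb and Mpc2 were the closest pair (0.151 log2 units), followed by Pdk2 and Mpc2 (0.155) and Pdhb and Pdk2 (0.179). Pdk2 and Pdk4 were the farthest apart, at 0.932. Over the 15 hearts Pdhb spanned 15.7-fold, Pdk2 14.4-fold and Mpc2 13.4-fold from lowest to highest, while Pdk1 spanned 2.82-fold and Pdp1 3.12-fold. Among 6826 genes of at least 10 CPM on average, those closest to Pdha1 were Mfn2, Hspa9 and Gnpat (0.0949 to 0.100), and those closest to Pdk1 were Slain2, Kif21a and Sms (0.142 to 0.148). Those closest to Pdp1 were Fig4, Ginm1 and Pex2 (0.0804 to 0.102), and those closest to Mpc1 were Gm10039, Ndufb6 and Ndufb8 (0.275 to 0.313). Pdk4 had no close companion: its nearest genes were Fabp4, Rom1 and Cldn5 at 0.389 to 0.398, beside its own SD of 0.695.

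In cultured fibroblasts 6 of the 10 genes differed between the groups. Co-culture libraries held more Pdk4, Pdk2, Mpc1 and Mpc2 than 3D-culture libraries, 4 genes beside 30.3% of all genes higher, and less Pdk1 and Dlat, 2 genes beside 29.5% of all genes lower. The 6 did not overlap between the groups, where 33.3% of all genes were higher and 33.7% lower without overlap, and the 4 others, Pdha1, Pdhb, Pdp1 and Pdp2, overlapped and were not called. The median log2 fold change was 0.11, against -0.06 over all genes, and total-count scaling moved that of all genes to -0.41 and the higher genes from 50.7% to 32.7% of those called.

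Pdk4 rose most. It was at 14.1, 20.1 and 25.5 CPM (58, 90 and 146 counts) in co-culture and at 1.53, 1.19 and 1.83 CPM (26, 15 and 34 counts) in 3D-culture, with a log2 change of 3.69 (SE 0.27, adjusted p = 8.6e-06, by edgeR's quasi-likelihood F test, Benjamini-Hochberg adjusted). Pdk2 was at 25.5, 31.7 and 28.8 CPM in co-culture and at 5.66, 7.16 and 5.80 CPM in 3D-culture, a log2 change of 2.21 (SE 0.16, adjusted p = 8.4e-06). Pdk1 went the other way, at 1.94, 1.12 and 3.49 CPM (8, 5 and 20 counts) in co-culture against 5.01, 4.78 and 4.83 CPM, a log2 change of -1.10 (SE 0.34, adjusted p = 0.020), which was lost without co-culture replicate 1 (-1.02, adjusted p = 0.065) or replicate 2 (-0.80, adjusted p = 0.061). Its adjusted p ran from 0.00078 to 0.065 over all settings. No kinase gene overlapped between the culture groups. Pdk3, a kinase gene outside the set, dominated in 3D-culture with 82.2 ± 3.57% of kinase transcripts per exon length, and took 37.7 ± 4.27% in co-culture (SD, n = 3 each). In co-culture Pdk2 took a like share, 37.9 ± 3.51%, and Pdk4 took 23.3 ± 4.39% (SD, n = 3 each). The log2 fold change of Pdk3 was -0.66 (adjusted p = 0.0062).

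The carrier gene Mpc1 was at 36.4, 28.6 and 27.1 CPM in co-culture and at 4.96, 8.60 and 4.19 CPM in 3D-culture, without overlap, a log2 change of 2.39 (SE 0.27, adjusted p = 8.8e-05). Its partner Mpc2 was at 153, 169 and 158 CPM in co-culture and at 139, 116 and 134 CPM in 3D-culture, a log2 change of 0.30 (SE 0.11, adjusted p = 0.041). The Mpc2 call was lost when any 1 of the 6 libraries was left out (0.21 to 0.34, adjusted p = 0.063 to 0.15), and with total-count scaling the sign turned (-0.05, adjusted p = 0.81, within 0.032 to 0.81 over all settings). Dlat was at 44.1, 35.1 and 45.0 CPM in co-culture and at 57.3, 63.5 and 59.4 CPM in 3D-culture, a log2 change of -0.54 (SE 0.13, adjusted p = 0.0066). Pdhb (103 to 122 against 100 to 113 CPM) and Pdha1 (38.8 to 50.6 against 40.0 to 44.7 CPM) had log2 fold changes of 0.11 each (SE 0.11 and 0.14, adjusted p = 0.44 and 0.50), with signs that turned with total-count scaling (-0.24 each).

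Pdp2 depended on 1 library. It was at 58.4, 42.5 and 37.5 CPM in co-culture and at 27.6, 93.8 and 32.4 CPM in 3D-culture, a log2 change of -0.15 (SE 0.43, adjusted p = 0.78). Without 3D-culture replicate 2, which stood at 93.8 CPM, it was 0.59 higher in co-culture (adjusted p = 0.00575, within 0.00575 to 0.975 over all settings). Pdp1 was at 6.30, 3.80 and 4.89 CPM against 4.31, 8.36 and 4.99 CPM (-0.23, SE 0.32, adjusted p = 0.56), and without the same library its sign turned (0.07, adjusted p = 0.82). The difference of 3D-culture replicate 2 was not confined to these genes. Chi-square per degree of freedom, over the genes compared, was 198.5 and 178.2 for its pairs with replicates 1 and 3. Between replicates 1 and 3 it was 10.66.

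**Figure D5:**
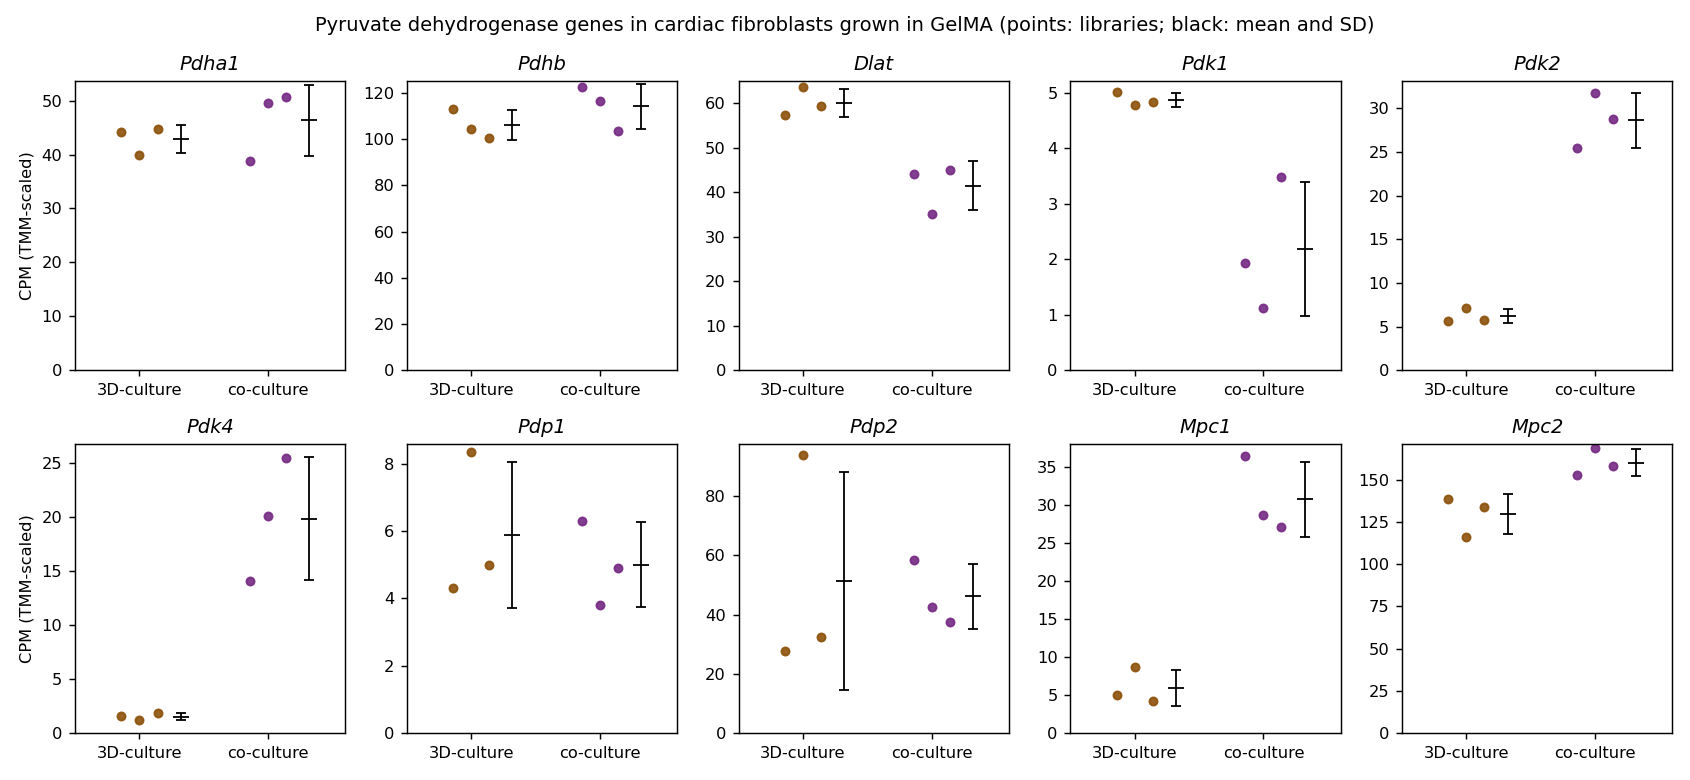
CPM of each gene in the 3 fibroblast libraries grown alone and the 3 from co-culture (points), with mean and SD in black and vertical axes starting at 0. Pdk4, Pdk2 and Mpc1 lie clearly higher in co-culture, and 1 library of 3D-culture stands at 93.8 CPM for Pdp2, far above the other 2.

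Within fibroblast libraries the log2 ratio of Pdk4 to Pdk2 was -2.20 ± 0.48 in 3D-culture and -0.71 ± 0.35 in co-culture, and that of Mpc1 to Mpc2 -2.70 ± 0.67 and -0.58 ± 0.28 (SD, n = 3 each). Pdk1, Pdk2 and Pdk4 summed over both phosphatases were at -1.57 ± 0.82 in 3D-culture and 0.72 ± 0.56 in co-culture. With Pdk3 added to the kinases the values were 0.93 ± 1.09 and 1.40 ± 0.47 (SD, n = 3 each), so the sign in 3D-culture turned and the ranges (-0.32 to 1.62 and 0.88 to 1.78) overlapped. Of the other pathway genes, 2 of 3 subunits and regulators tested were lower in co-culture (Dld -0.73), and 2 of 5 lactate and pyruvate transport genes were higher (Ldhb 2.30) with 1 lower. Of 7 genes of other fates 1 was higher, Pcx at 1.64, and 4 were lower. Of 6 PPAR-responsive genes 3 were higher, the lipid droplet gene Plin2 at 1.72, Angptl4 at 1.51 and Acot1 at 1.99, and 1 was lower. The macrophage markers summed to 895 to 1438 CPM in the unsorted 3D-culture and 388 to 509 CPM in the sorted co-culture, and the adipocyte markers to 22.0 to 28.3 and 216 to 269 CPM, with Lep at 0 in both. The 18 cardiomyocyte markers summed to 286 to 329 CPM in 3D-culture and 210 to 220 CPM in co-culture, with Myl3 and Pln at 0 in both. The part of other cells in the members' values was not tested.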

How the data were processed

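Expression was measured by RNA-seq in 15 heart and 6 fibroblast libraries made with a modified Smart-seq2 method with molecular barcodes, per the labels' protocols. The deposited values are raw counts per gene, and STAR, HTSeq and the build mm10 are named in the submitters' processing notes, with versions and strand setting not given in the sources used here. The fibroblast file names carry a mark for removal of duplicates, the heart file names do not. Symbols came from GENCODE M21 (53620 of 53801 identifiers matched, 0 entries named no gene). A series-wide table of 6 columns was not used, since its columns match no label.

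The members, gene lists, motifs and tests were chosen with earlier results of these data known. Counts were fitted with edgeR 4.0.16 in R 4.3.3 (filterByExpr, TMM, quasi-likelihood test, Benjamini-Hochberg adjustment over all 17064 heart or 12293 fibroblast genes tested, threshold 0.05), with all hearts in one fit and the fibroblasts in another. SE are the absolute log2 fold change over the square root of the F statistic. CPM per kb divide by the merged exon length. The fit was first tested on simulated data whose changes were known. No replicates were copies of one library (chi-square test of their counts). Genes named in the text are all members, up to 3 genes of each list with the smallest p among those past the threshold, and the 3 genes closest to Pdha1, Pdk1, Pdk4, Pdp1 and Mpc1. Pdk3 is also given by its share of kinase transcripts, and in an added sum of the kinases, both chosen after its values were seen.

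Same-numbered libraries were checked for shared deviations from their group means. Only for MI and FapKO did all same-numbered pairs correlate above 0.1 (0.118, 0.173, 0.493 and 0.497), though the labels do not say what a number stands for. Pairs of MI and FapKO libraries with unlike numbers ran from -0.519 to 0.455, so some correlated more than the lower same-numbered pairs. Alternatives were RLE size factors, total-count scaling, no filter, DESeq2 1.42.0, limma-voom (limma 3.58.1), leaving out mitochondrial genes and the 50 with most counts, a replicate block, fits of only the 2 groups compared, the cardiomyocyte marker level as a covariate, and each library left out in turn. Python 3.11.15 with pandas 2.3.3, matplotlib 3.10.9 and numpy 2.4.6 made the tables and plots. Protein sequences were not used here.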

Additional observations from a re-analysis of the deposited data

Results flagged for a closer look

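Within groups of 4 hearts, 3 values stood farther from the rest of their group than a Dixon test at the 95% level allows, out of 30 gene and group combinations checked, and chance alone marks about 1 in 20 groups. Pdk1 in MI replicate 3 was at 19.6 CPM, above the 12.2 to 13.4 CPM of the other MI hearts. The same heart had the highest cardiomyocyte marker level of its group, at 9.30 log2 units. Pdk1 in FAPI replicate 3 was at 23.5 CPM, below the 31.8 to 33.2 CPM of the other FAPI hearts. Pdk2 in FapKO replicate 3 was at 218.9 CPM, above the 165 to 169 CPM of the other FapKO hearts. The part of cell content in these values was not tested.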

How the results depend on the processing

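Of 70 member values, 69 kept their direction and their side of the threshold with RLE size factors, 68 with DESeq2, with limma-voom, and with mitochondrial and abundant genes removed, and 66 without the filter on low counts. With the cardiomyocyte covariate the number of members called went from 10 to 2 for MI against sham and from 8 to 0 for FAPI against MI. For FapKO against MI it went from 10 to 1. The limit is that neither the MI nor the sham marker levels overlap with those of any other group. In that fit signs turned for Pdk1 in MI (0.16), FAPI (0.45, there called higher, adjusted p = 0.026) and FapKO (0.25) against sham, for Pdk4 in FAPI against sham (0.074), and in FAPI against MI for Pdp2 (-0.11), Ldhb (-0.14), Slc16a1 (-0.13), Lias (-0.0051) and Dlst (-0.0020).

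With total-count scaling 51 of 70 member values kept direction and side. Signs turned for Pdk4 in MI against sham (0.21), for Pdp1 (-0.12) and Pdp2 (-0.16) in FAPI against MI, for Pdp1 in FapKO against MI (-0.19) and against FAPI (-0.070), for Pdk1 (0.65) and Pdk4 (0.54) in FAPI against sham, for Pdk1 in FapKO against sham (0.49), and for Pdha1 (-0.24), Pdhb (-0.24) and Mpc2 (-0.053) in co-culture. Pdk1 against sham, whose value was near 0, also turned without the filter (0.050 in FAPI, 0.0070 in FapKO) and in fits of the 2 groups only (0.0087 in FAPI, 0.010 in FapKO). Pdp2 in co-culture turned with limma-voom (0.071).

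With the replicate block 68 of 70 member values were kept, Pdp2 in co-culture turned (0.054) and Mpc2 in co-culture lost its call (0.31, adjusted p = 0.084). No member call between FapKO and MI changed with the replicate block. Of 510 member values with 1 library left out, 480 were kept, 17 lost and 3 gained a call, and 10 changed sign. Those were Pdk1 in FapKO against FAPI (-0.14 to 0.013), in FAPI against sham (-0.057 to 0.099) and in FapKO against sham (-0.12 to 0.0055), and Pdp1 (-0.43 to 0.072) and Pdp2 (-0.47 to 0.59) in co-culture. The cause was not tested in any of these. With 0.5 counts added, 49 of 49 differences of ratios moved by less than 1 SD. With Pdk3 added to the summed kinases, an alternative chosen after seeing the data, the log2 difference of kinases to phosphatases went to -0.44 for MI against sham, 0.32 for FapKO against MI and 0.47 for co-culture. Depth limits Pdk1 in co-culture most, at 5 to 20 counts.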
